A study of Mus musculus with 6 samples.

Results

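The 10 genes Acly, Acss2, Acaca, Acacb, Fasn, Elovl6, Scd1, Scd2, Fads1 and Fads2, which supply cytosolic acetyl-CoA and build, lengthen and desaturate fatty acids, were chosen by function and found by gene name among 54532 genes of the deposited table, each in 1 row. RNA sequencing compared MC3T3-E1 cells, a mouse pre-osteoblast line, after 3 days of induction in osteogenic medium (OM, 3 samples, labelled control) and in the same medium with 0.2 mM metformin, a biguanide used to lower blood glucose (OM + Met, 3 samples). Dose and duration are taken from the study's methods. All samples received the inducers β-glycerophosphate, ascorbic acid and dexamethasone, so neither group is an uninduced culture. All samples are cultures of 1 cell line, and the p-values measure the spread between these cultures.

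In the cytosol, ATP citrate lyase (Acly) splits citrate and acetyl-CoA synthetase (Acss2) uses acetate to make acetyl-CoA, and the acetyl-CoA carboxylases (Acaca and Acacb) convert it to malonyl-CoA. Fatty acid synthase (Fasn) joins these units to palmitate, Elovl6 lengthens palmitate to stearate, the stearoyl-CoA desaturases (Scd1 and Scd2) make monounsaturated fatty acids, and Fads2 and Fads1 act in turn on polyunsaturated ones. The transcription factors of the SREBP family are known to drive many of these genes. The kinase AMPK, which metformin is known to activate, inhibits acetyl-CoA carboxylase by phosphorylation, and RNA levels do not measure that step.

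The table gives FPKM, reads scaled for gene length and effective library size, from which whole reads could be recovered. They were 18399861 to 20652437 per sample in OM and 19256672 to 22111790 with metformin. Replicate 1 in OM stood apart, with Pearson correlations across genes of 0.960 and 0.952 with the other OM samples, which had 0.988 with each other. Its deviation from them had a Spearman correlation of -0.668 with GC content across 12663 genes, which are not independent replicates. Mitochondrially encoded genes took 6.36% to 10.01% of the reads in OM and 2.72% to 3.16% with metformin. Of 11 osteoblast markers 10 were above the limit for testing, of which 2 were higher with metformin (Col1a1 and Col1a2) and 3 lower (Spp1, Ibsp and Dmp1). Their summed FPKM were 10091 to 11852 in OM and 6835 to 7233 with metformin, with Spp1 at 7703 and 2704 on average. Of 9 adipocyte markers, genes of a cell type that makes much fat, 7 were too low to test. Among those 7, Pparg reached 0.20 FPKM (OM + Met replicate 2) and Adipoq 0.12 (OM replicate 1), and Cidec and Cidea were listed at 0. The 2 adipocyte markers tested, Cebpa (7.99 FPKM in OM and 7.07 with metformin on average) and Fabp4 (2.21 and 2.06), were not called. They made up most of the summed FPKM of 7.88 to 12.2 in OM and 8.65 to 9.74 with metformin. The summed FPKM of 5 macrophage markers were 1.97 to 2.18 in OM and 1.12 to 1.35 with metformin, nearly all from Cd68, with Itgam at 0 and Ptprc at no more than 0.02 FPKM. Those of 4 endothelial and 4 skeletal muscle markers were at most 0.131 and 0.427, none of these markers reached the limit for testing, and Myod1 and Myog were listed at 0. The part of the mitochondrial reads in the results was not tested, and in bulk RNA fewer expressing cells and less RNA per cell cannot be told apart.

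Of the 10 genes, 9 were tested by limma at a threshold of 0.05 on the adjusted p-value. With metformin 8 of them were called higher and 0 lower, in comparison with 13.2% of the 12681 tested genes called higher and 9.28% called lower. Higher genes were 58.7% of all calls, and 45.9% after a correction of each library for GC content, which left all 8 calls of the fatty acid genes in place. The 3 OM + Met samples lay above the 3 OM samples for 8 of the 9 tested genes, which was so for 23.6% of all tested genes. The tested genes had a median log2 fold change of 0.72, where the median over all tested genes was 0.0053. Acaca was the tested gene that was not called, and Acacb was too low for the test. By the ratio of the group means, the called genes were 1.46 to 3.09 times as high with metformin, with Scd2 at the lower end and Fads2 at the upper end. Without OM replicate 1 all 8 genes were still called and Acaca was also called, which made 9.

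**Figure D1:**
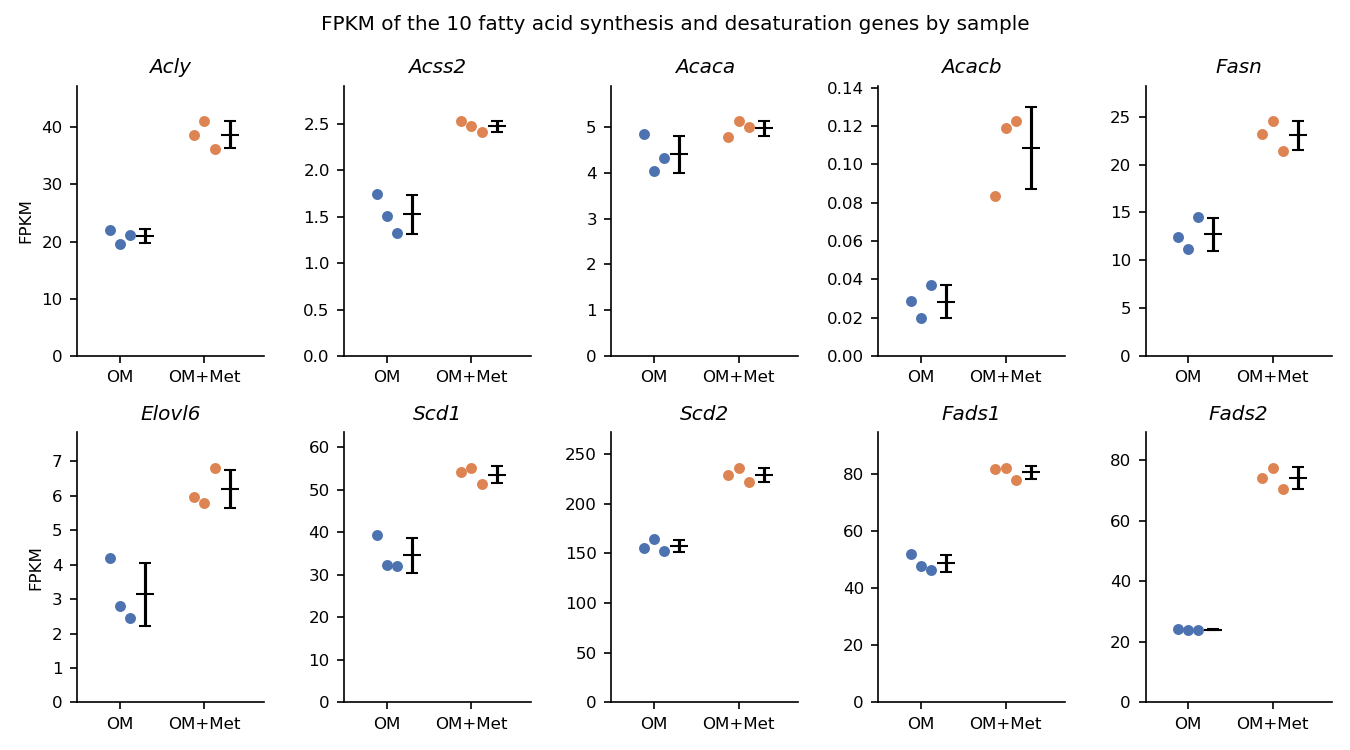
FPKM of each of the 10 genes (y axis, from 0, a scale of its own for each gene) in the 3 samples in osteogenic medium (OM, blue) and the 3 with metformin (OM+Met, orange). Bars give the mean and SD (n = 3). The groups overlap for Acaca, and Acacb stays under 0.123 FPKM in all 6 samples.

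RefSeq promoter windows on GRCm38.p6 were held for 7 of the 10 genes, not for Scd1, Scd2 and Fads1. The 250 bases before the start site were searched on both strands for TCACNCCAC (an SREBP element), CCAAT (the box bound by NF-Y, a partner of SREBP), GGGCGG (an Sp1 box) and the palindrome CACGTG (an E-box). Of the 5 genes with a window that were called higher, Fasn, Acly and Fads2 are shown because their windows lie wholly outside the genes as listed, and capitals mark NF-Y and Sp1 boxes in either orientation. Those of Acss2 and Elovl6 reach into the gene and are not printed, and that of Elovl6 held 0 matches to the 4 motifs.
Fasn (chr11:120824548-120824797, minus strand): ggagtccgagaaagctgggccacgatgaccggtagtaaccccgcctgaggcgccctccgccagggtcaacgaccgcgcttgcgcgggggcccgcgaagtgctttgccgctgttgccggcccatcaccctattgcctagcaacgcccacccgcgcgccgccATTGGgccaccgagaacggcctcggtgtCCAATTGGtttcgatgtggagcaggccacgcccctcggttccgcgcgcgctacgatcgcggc
Acly (chr11:100528001-100528250, minus strand): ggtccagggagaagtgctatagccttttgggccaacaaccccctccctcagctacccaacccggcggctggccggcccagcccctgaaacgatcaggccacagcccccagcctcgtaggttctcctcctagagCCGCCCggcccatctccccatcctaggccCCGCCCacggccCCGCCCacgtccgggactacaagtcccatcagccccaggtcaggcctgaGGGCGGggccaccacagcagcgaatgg
Fads2 (chr19:10101504-10101753, minus strand): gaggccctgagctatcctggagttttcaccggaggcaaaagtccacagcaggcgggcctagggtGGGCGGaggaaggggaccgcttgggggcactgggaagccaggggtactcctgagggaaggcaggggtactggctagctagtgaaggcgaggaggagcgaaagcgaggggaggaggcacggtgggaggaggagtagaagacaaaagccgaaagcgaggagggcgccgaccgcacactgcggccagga

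An NF-Y box was found in the windows of 3 of the 7 genes, Fasn, Acss2 and Acacb, and in 33.8% of all 32851 promoter windows. Fasn held 3 of them, from base -90 to base -55 before the start, of which the last and its neighbour overlap on opposite strands. An Sp1 box was found for 3 genes, with 4 in Acly, 4 in Acss2 and 1 in Fads2, and in 32.7% of all windows. The letters of the SREBP element were found in 0 of the 7 windows and in 1.05% of all windows, and those of the E-box in 0 of the 7 and in 6.02%. Matches this rare in all windows mean that 0 of 7 cannot tell these genes from others. Sites with other letters or farther from the start were not searched. The RefSeq windows used have a later start than the table for some genes, so those of Acaca and Acacb lie wholly inside the genes as listed. The same holds for 95 bases of that of Acss2 and 31 of that of Elovl6. All 7 windows are in the counts above, and whether their starts are used in these cells was not tested.

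Both suppliers of acetyl-CoA rose with metformin. Acly (chromosome 11, 100476353 to 100528000, minus strand) had 22.1, 19.6 and 21.2 FPKM in OM and 38.7, 41.1 and 36.3 FPKM with metformin, with every OM + Met sample above every OM sample. Its log2 fold change was 0.85 (SE 0.090, adjusted p = 0.00104 by limma). Acss2 (chromosome 2, 155517948 to 155585724, plus strand) was lower in level, with 1.75, 1.51 and 1.32 FPKM in OM and 2.53, 2.48 and 2.41 FPKM with metformin. The groups did not overlap, and the log2 fold change was 0.46 (SE 0.095, adjusted p = 0.0154 by limma). It was taken on log2(FPKM + 1), which understates changes of low genes. By the ratio of the group means Acss2 was 1.62 times as high with metformin and Acly 1.84 times. The call of Acss2 was lost without any 1 of the OM + Met samples (adjusted p of 0.0638 to 0.0767 by limma) and with a block for the replicate number (adjusted p = 0.0541 by limma). With no filter on low values it was also lost, on log2(FPKM + 1) and on log2(FPKM + 0.1) (adjusted p = 0.0554 and 0.0506 by limma). Acss2 overlaps Ggt7 and Gss on the opposite strand, and whether counting used strand is not given in the sources used here. These 2 genes did not pass the test, with log2 fold changes of -0.08 for Ggt7 and -0.185 for Gss (adjusted p = 0.708 and 0.191 by limma).

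Neither carboxylase gene was among those called. Acaca (chromosome 11, 84129672 to 84401651, plus strand), the cytosolic enzyme of lipogenic tissues, had 4.84, 4.05 and 4.32 FPKM in OM and 4.79, 5.13 and 4.99 FPKM with metformin. The highest OM sample, replicate 1, lay above the lowest OM + Met sample, and the log2 fold change of 0.15 (95% interval -0.06 to 0.35) did not pass the test (adjusted p = 0.275 by limma). Without OM replicate 1 it was 0.20 and passed (adjusted p = 0.0466 by limma). Transcript sequence of Acaca is 99.9% identical over 685 bases to Gm5182, which had 2.104 ± 0.53 FPKM in OM and 2.103 ± 0.38 with metformin (SD, n = 3), so reads could be split between them.

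Acacb (chromosome 5, 114146535 to 114250761, plus strand), the form tied to mitochondria and known for control of fatty acid oxidation, was close to the limit of detection. It had 5, 4 and 7 reads in the OM samples and 16, 25 and 23 reads with metformin, against a floor of 3 reads per sample, or 0.0198 to 0.0370 FPKM and 0.0837 to 0.123 FPKM. The groups did not overlap. The pooled rate was 3.86 times as high with metformin, with an exact 95% interval of 2.20 to 7.14 that covers counting error only. Of 3 fits that took in genes of every level, 2 called it (adjusted p = 0.0477 on log2(FPKM + 1) by limma and 0.0288 by limma voom on the reads) and 1 did not (adjusted p = 0.0777 on log2(FPKM + 0.1) by limma).

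Fasn and Elovl6, which make palmitate and then stearate, both rose. Fasn (chromosome 11, 120805846 to 120824547, minus strand; its upstream window is the first of those shown) had 12.4, 11.2 and 14.6 FPKM in OM and 23.2, 24.5 and 21.4 FPKM with metformin. The lowest OM + Met sample was 1.47 times the highest OM sample, and the log2 fold change was 0.82 (SE 0.11, adjusted p = 0.00346 by limma). Elovl6 (chromosome 3, 129532355 to 129638495, plus strand) had 4.18, 2.80 and 2.45 FPKM in OM and 5.96, 5.79 and 6.82 FPKM with metformin. Its OM samples were the most spread of the 9 tested genes, with a coefficient of variation of 29.1% in comparison with 8.93% with metformin, and replicate 1 was the high one. The log2 fold change of Elovl6 was 0.81 (SE 0.16, adjusted p = 0.0134 by limma), and it was 0.99 without OM replicate 1. Its call was lost without OM replicate 2 (adjusted p = 0.0535 by limma), without OM + Met replicate 1 (0.0527) and without OM + Met replicate 3 (0.0626). Elovl6 shares 221 bases at 99.5% identity with Gm11295, which was listed at 0 in all samples.

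The stearoyl-CoA desaturases lie 87.6 kb apart on chromosome 19, and both rose. Scd2 (44293676 to 44306864, plus strand) had 156, 164 and 152 FPKM in OM and 229, 236 and 222 FPKM with metformin, which made it the most abundant of the 10 genes in every sample. The log2 fold change of Scd2 was 0.54 (SE 0.085, adjusted p = 0.00561 by limma), with no overlap between the groups. Scd1 (44394451 to 44407709, minus strand) had 39.4, 32.2 and 32.1 FPKM in OM, where replicate 1 was the high one, and 54.2, 55.2 and 51.2 FPKM with metformin. Its log2 fold change was 0.62 (SE 0.11, adjusted p = 0.00779 by limma), again with no overlap. Transcripts of both genes are 95.5% identical over 623 bases, so some reads could have been assigned to either.

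The polyunsaturated fatty acid desaturases also lie side by side on chromosome 19, 81.4 kb apart, and Fads2 showed the largest change of the 9 tested genes. Fads1 (10182888 to 10196870, plus strand), which adds a later double bond, had 52.1, 47.9 and 46.3 FPKM in OM and 81.7, 82.2 and 78.0 FPKM with metformin. This gave a log2 fold change of 0.72 (SE 0.086, adjusted p = 0.00182 by limma). Fads2 (10064164 to 10101503, minus strand), which catalyses the first and rate-limiting desaturation, had 24.3, 24.0 and 23.9 FPKM in OM and 74.3, 77.6 and 70.4 FPKM with metformin. The lowest OM + Met sample was 2.90 times the highest OM sample. The log2 fold change of Fads2 was 1.58 (SE 0.080, adjusted p = 8.13e-05 by limma), the 172nd highest of the 12681 tested genes.

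**Figure D2:**
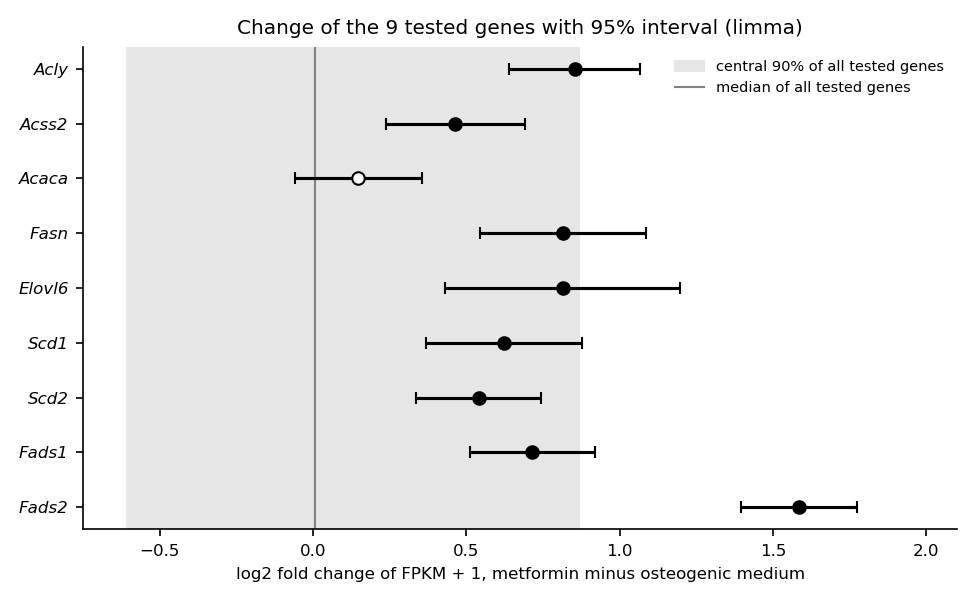
Log2 fold change of FPKM + 1 (x axis, metformin minus osteogenic medium) of the 9 tested genes, with 95% intervals from limma. Filled points have an adjusted p-value under 0.05 and the open point, Acaca, did not. The grey band spans the central 90% of all tested genes (-0.61 to 0.87), and Fads2 at 1.58 lies outside it.

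Enzymes were compared in pairs by the log2 ratio of their FPKM within each sample, in which the library scaling cancels. Of these pairs, Fads1 and Fads2 act in turn, and Acly and Acss2 make acetyl-CoA from different substrates. Fads1 over Fads2 was 1.02 ± 0.075 in OM and 0.12 ± 0.034 with metformin (SD, n = 3), a shift of -0.90 with no overlap between the groups. The exact permutation test over samples gave p = 0.1 (two-sided), the smallest that 3 samples against 3 allow, and 0.2 after adjustment over the 4 ratios. Acaca over Acacb fell from 7.32 ± 0.41 to 5.54 ± 0.26 without overlap (exact permutation p = 0.1, adjusted 0.2), with Acacb at few reads. That shift was -1.78, and -0.52 when 0.1 was added to each FPKM. Scd1 over Scd2 was -2.19 ± 0.19 in OM and -2.10 ± 0.019 with metformin, and the groups overlapped (exact permutation p = 0.4, adjusted 0.4). Acly over Acss2 was 3.79 ± 0.19 and 3.97 ± 0.075 and also overlapped (exact permutation p = 0.3, adjusted 0.4).

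By FPKM, the order of the levels in OM was Scd2, Fads1, Scd1, Fads2, Acly, Fasn, Acaca, Elovl6, Acss2 and Acacb, and only Acaca and Elovl6 among neighbours overlapped between samples. With metformin Fads2 stood above Scd1 and Elovl6 above Acaca, and no neighbours overlapped. The FPKM of the 10 genes summed to 317, 308 and 298 in OM and to 515, 530 and 494 with metformin. Scd2 made up 51.2% ± 2.1 of the sum in OM and 44.7% ± 0.26 with metformin, while Fads2 made up 7.82% ± 0.17 and 14.4% ± 0.18 (SD, n = 3). The part of Fads1 was 15.9% ± 0.52 and 15.7% ± 0.20. These levels rest on the listed gene lengths, which for Fads2 was 1508 bases where its longest GENCODE M21 transcript has 3150, for Acaca 17074 where that has 9513 and for Acss2 10163 where that has 3609. Scaled to those transcripts, Fads2 would be at 11.5 FPKM in OM and 35.5 with metformin, under Scd1 and Acly in both groups, and would make up 3.75% and 7.20% of the sum. Elovl6 would be at 3.40 and 6.69 FPKM, under Acaca (7.90 and 8.92) and Acss2 (4.30 and 6.97) in both groups. Neither change of order with metformin is then seen, but another is. Fasn would be at 13.9 FPKM in OM, above Fads2, and at 25.1 with metformin, under Fads2. The ratios between the groups stay as they are.

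**Figure D3:**
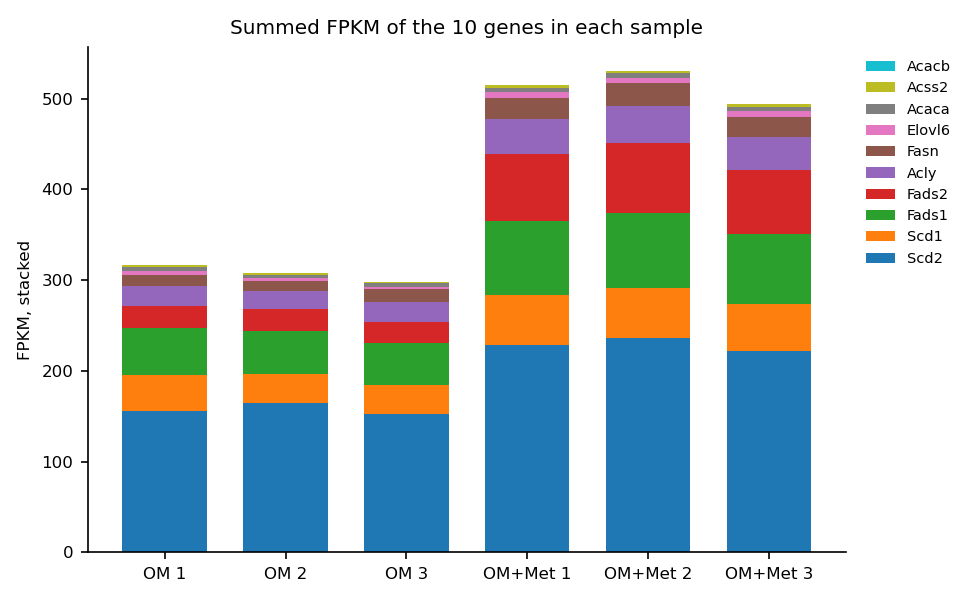
Stacked FPKM (y axis, from 0) of the 10 genes in each of the 6 samples, with OM for osteogenic medium and OM+Met for osteogenic medium with metformin. Each colour is 1 gene. The sums were 298 to 317 in OM and 494 to 530 with metformin, and the Fads2 part grew from 7.82% to 14.4% on average.

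Around these enzymes, 8 lists of genes of lipid metabolism with 84 tested genes were read from the same fit, beside 13.2% of all tested genes called higher and 9.28% called lower. Among 11 tested genes of lipogenic transcription control, 2 were higher and 1 was lower (median log2 fold change -0.07). Insig1, a sterol-responsive inhibitor of SREBP processing, rose from 22.2 ± 0.45 to 56.3 ± 2.38 FPKM (log2 fold change 1.30, adjusted p = 0.000142 by limma), and Srebf2, which encodes the SREBP of cholesterol synthesis, rose from 27.4 ± 2.56 to 43.7 ± 1.84 FPKM (0.66). Insig2 fell by 0.62, a call lost without any 1 of the OM + Met samples and without OM replicate 2 (adjusted p of up to 0.144 by limma). The call of Insig2 was also lost with the replicate block (adjusted p = 0.0787 by limma) and with no filter on low values (adjusted p = 0.0918 by limma). Srebf1, which encodes the SREBP best known for fatty acid synthesis and is named here after its values were seen, had 12.6 ± 2.11 FPKM in OM and 13.1 ± 0.26 with metformin. Its log2 fold change of 0.06 (95% interval -0.24 to 0.36, adjusted p = 0.772 by limma) was not past the threshold, and its sign turned without OM replicate 1 (-0.07) and with the GC correction (-0.02).

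Of 12 tested genes of other elongation and desaturation enzymes, 4 were higher and 2 were lower (median 0.40). Elovl5, the elongase of polyunsaturated fatty acids, rose by 0.70 and Fads3, the neighbour of Fads2 in the same cluster, by 0.59 on the log2 scale. Hsd17b12 (0.45) and Elovl1 (0.41) were also higher, but neither was called when any 1 OM + Met sample or OM replicate 3 was left out or with the replicate block, and Hsd17b12 was also not called without OM replicate 2. Hacd2 fell by 1.21 and Hacd3 by 0.78 on the log2 scale, both dehydratases of the elongation cycle, and the call of Hacd3 was lost without OM + Met replicate 3 (adjusted p = 0.0530 by limma). In the supply of citrate and NADPH, 4 of 6 tested genes were higher and 0 were lower by limma (median 0.51). Me1, the cytosolic malic enzyme, rose from 15.1 ± 2.34 to 31.1 ± 0.97 FPKM (log2 fold change 1.00, adjusted p = 0.00160 by limma), and Idh1 (0.52), G6pdx (0.51) and Cs (0.47) were higher too, though Idh1 and G6pdx were not called without any 1 OM + Met sample, Idh1 also not without OM replicates 2 or 3, and Cs not without OM + Met replicates 1 or 2. The citrate carrier Slc25a1, named after its values were seen, was not called (0.80, 95% interval 0.02 to 1.58, adjusted p = 0.130 by limma), but it was without OM replicate 1 (0.39, adjusted p = 0.00149) and with the GC correction (0.72, adjusted p = 0.0266).

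Fatty acid synthesis also has a separate mitochondrial route. Of its 5 tested genes 0 were higher by limma and 2 were lower (median -0.24): Mcat, the malonyl transferase, fell by 0.60 and Oxsm, the condensing enzyme, by 0.53 on the log2 scale. Without OM + Met replicates 1 or 3 Mcat was not called (adjusted p = 0.0587 and 0.0509 by limma). In fatty acid oxidation 1 of 13 tested genes was lower and 0 were higher by limma (median -0.06). This was Acadm, a medium-chain acyl-CoA dehydrogenase, which fell from 13.2 ± 1.07 to 8.68 ± 0.16 FPKM (log2 fold change -0.55, adjusted p = 0.00565 by limma).

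Uptake and activation of fatty acids had 4 of 10 tested genes higher and 1 lower (median 0.32). Fabp5, a fatty acid binding protein, rose from 2.55 ± 0.30 to 18.1 ± 0.92 FPKM (2.43, adjusted p = 6.4e-05 by limma), and Slc27a3 (0.71), Acsl5 (0.64) and Acsl1 (0.54) were higher, while the transport protein gene Slc27a1 fell by 1.05 on the log2 scale. Without OM + Met replicate 2 Slc27a3 and Acsl5 were not called (adjusted p = 0.0507 and 0.0522 by limma). Glycerolipid synthesis and storage had 3 of 13 tested genes lower and 1 higher (median 0.20, a sign opposite to most of its calls). Lpin1, a phosphatidate phosphatase, fell from 8.33 ± 0.41 to 3.45 ± 0.16 FPKM (-1.07), and the lipid droplet coat gene Plin2 (-0.68) and the triglyceride synthesis gene Dgat1 (-0.67) were lower. The higher gene, Lpin2 (0.34), was called without OM replicate 1 but lost without any other sample (adjusted p of up to 0.141 by limma).

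Cholesterol synthesis and uptake, which SREBPs also control, had 13 of 14 tested genes higher (median 1.16). Idi1, the isopentenyl diphosphate isomerase, rose by 1.75 and Mvd, the mevalonate diphosphate decarboxylase, by 1.46 on the log2 scale. Dhcr7, named after its values were seen, had 14.6 ± 1.56 FPKM in OM and 12.8 ± 0.67 with metformin (-0.17, adjusted p = 0.280 by limma), and without OM replicate 1 it was called lower (-0.25, adjusted p = 0.0219), as it was with the GC correction (-0.21, adjusted p = 0.0492). The largest change among the tested fatty acid genes, 1.58 for Fads2, lay within the range of this list. The median of the tested fatty acid genes, 0.72, lay under the median of this list. The difference between the lists was not tested.

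**Figure D4:**
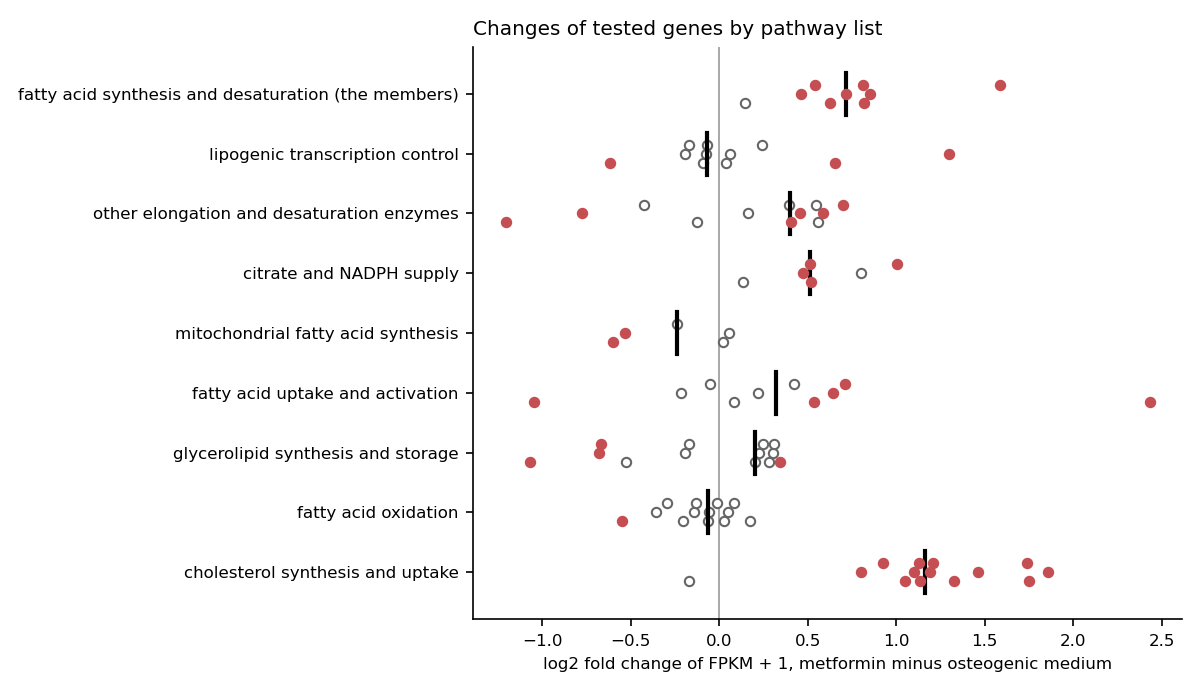
Log2 fold change of FPKM + 1 (x axis, metformin minus osteogenic medium) of each tested gene of the fatty acid synthesis and desaturation genes and of the 8 other lists (rows). Filled red points have an adjusted p-value (limma) under 0.05, open points do not, and black bars are medians. The medians run from -0.24 for mitochondrial fatty acid synthesis to 1.16 for cholesterol synthesis and uptake.

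Likeness to Fasn and Scd1 over the 6 samples was measured by the Pearson correlation of log2(FPKM + 1), and these samples share the contrast of the groups. The 5 tested genes most like Fasn were Kdm2b (r = 0.9999), Ak4 (0.997), H6pd (0.997), Hspg2 (0.997) and Asap1 (0.997). The 5 most like Scd1 were Alcam (0.999), Sertad2 (0.999), Lama4 (0.999), Rel (0.998) and Adgrg6 (0.998). None of the 10 fatty acid genes was among them. Of the genes most like Fasn, Kdm2b and H6pd were themselves not called (adjusted p = 0.0572 and 0.0542 by limma), and the others were. All these genes were picked as the highest of all tested genes over only 6 samples, and whether they share control was not tested. With Fasn, the other tested fatty acid genes had r from 0.758 for Acaca to 0.979 for Acly, and with Scd1 from 0.878 for Acaca to 0.989 for Acss2. Of the 10 genes, 7 had their highest OM value in replicate 1, Fasn and Acacb had it in replicate 3, and Scd2 in replicate 2.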

How the data were processed

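RNA was sequenced from 6 samples after TruSeq library preparation from total RNA. Per the labels, the submitters' processing notes name Bowtie 0.12.2 and the builds mm8 and mm9. The counting tool, annotation and strand setting are not given in the sources used here. The deposited table names no unit. Its values are FPKM that the authors scaled by the listed gene length and an effective library size, since 100% of the values above 0, once multiplied by length, were whole multiples of a step that was fixed in each sample (tolerance 0.01 step). The gene length, in bases, is as deposited. Coordinates are those of the table: of its 54532 genes, 53499 have the same ones in GENCODE M21 (GRCm38), so they are given as GRCm38. Other per-sample columns numbered 0. A floor of 3 reads was set for every sample, whatever its depth, as a mark beside which low values are read. It was not used to filter genes or values. The authors tested expression with DESeq2, which was not run here, and limma voom on the recovered reads served as the test on reads.

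The 12681 genes whose mean FPKM reached 0.5 were fitted on log2(FPKM + 1) by limma 3.58.1 (R 4.3.3) with its intensity trend and Benjamini-Hochberg adjustment over all of them, at a threshold of 0.05. Fold changes on this scale understate changes of low genes. Data were simulated for this comparison with 12681 genes and the same set dispersion of reads for every gene. Of these, 95 of 100 genes changed by 2 on the log2 scale and 86 of 100 changed by 1 were called, with 7 unchanged genes. No simulated sample stood apart as OM replicate 1 did, and how these rates carry over to the measured data was not tested. Alternatives changed the pseudocount (0.1), the scaling (total reads) or the filter (none, or 10 reads in each sample), or used the replicate block, limma voom on the recovered reads, a GC correction within each library (a spline with 5 degrees of freedom on the GC content of the longest transcript), that correction with the block, and leaving out each sample. Samples with the same number had correlations of -0.053, 0.00027 and -0.055 between their deviations, and those with different numbers -0.094 to 0.094. This gave no sign of pairing by number, but 3 samples per group cannot exclude it.

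The members and lists were chosen with earlier results of these data known. Named were all 10 members, of each list the called genes up to 4 each way by size, and the 5 genes most like Fasn and Scd1. Some genes that this rule takes in are not reported here. Of the listed genes, Hsd17b8 was not analysed here. Overlap with other genes was taken from the table, and near-identical transcripts (at least 95% over 200 bases) were found with BLAST+ 2.17.0. Permutation tests used SciPy 1.17.1 and figures matplotlib 3.10.9. Protein identity of the paired enzymes was planned and not analysed here.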

Additional observations from a re-analysis of the deposited data

How the results depend on the processing

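The number of member genes called higher, 8 in the main fit, stayed between 6 and 9 over all 16 alternatives, with 0 called lower. These were not always the same genes. With no filter on low values Acss2 was not called (adjusted p = 0.0554 by limma) and Acacb was (adjusted p = 0.0477 by limma), and the count stayed at 8. Acacb was fitted only without that filter. Acly, Fasn, Scd1, Scd2, Fads1 and Fads2 were called in all 16, Elovl6 in 13, Acss2 in 10 and Acaca in 1. With the replicate block 7 genes were called, without Acss2. Over the 6 fits that each left out 1 sample they were 6 to 9. The directions of the 4 ratios held under each alternative run for them. The fits without a filter on low values that used a pseudocount of 0.1 or limma voom were chosen after seeing the data, so that Acacb could be fitted, and gave 7 and 9 called genes.

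Over all genes 1670 were higher and 1177 lower by limma. The lower genes were 698 with the replicate block, 2433 with the GC correction and 1888 with both, and the median shift of the log2 fold changes under the GC correction was -0.054. The higher genes ranged from 938 to 2969 and the lower from 495 to 2590 over the 6 fits without 1 sample, with both maxima without OM replicate 1. Of the 84 tested list genes 28 were higher and 10 lower. These were 18 to 36 and 7 to 17 over the 6 fits without 1 sample, with the lowest 18 without OM + Met replicate 2 and both maxima without OM replicate 1, and 19 were lower with the GC correction. The log2 fold change of Srebf1 was -0.015 with the GC correction, with and without the block, and ran from -0.074 (without OM replicate 1) to 0.14 over the 6 fits without 1 sample. For these changes the cause was not tested. At these depths Acacb had 4 to 25 reads per sample, so its level is known only roughly.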
